A study of Mus musculus with 6 samples.

Results

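The collagen genes of mouse liver were taken as every gene whose symbol has the form Col, a number, a and a number, and that at least 1 probe set of the array names with no other gene. This gave 42 genes of the 17097 named that way, with 68 probe sets. The brightest probe set of a gene, by its mean across the arrays, stood for that gene. A gene was tested when that mean lay above 2.66 on the log2 scale, the 40th percentile of the means of all non-control probe sets, here called the dim limit; 26 collagen genes of 12466 genes tested lay above it and 16 did not. The livers came from C57BL/6 mice, either wild type or knockout for Nrg4, the gene of neuregulin 4, a fat-derived factor of the epidermal growth factor family. Mice of both genotypes were put on high-fat diet at 3 months of age and kept on it for 8 weeks, and livers were taken in the random fed state. Each genotype has 3 Affymetrix MG-430 PM strip arrays, hybridised with separate pools of liver RNA. The sources used here do not give the size or sex of the pools or the way the Nrg4 allele was made, so p-values measure the spread between pools. In bulk liver RNA, fewer cells of a type and less RNA per cell cannot be told apart.

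Collagens are mostly secreted proteins of 3 chains wound into a triple helix, encoded by a large gene family and grouped by what the helices assemble into. Fibrillar collagens form the cables of scar and stroma, type IV collagen forms the sheet of basement membranes, FACIT collagens (fibril-associated collagens with interrupted triple helices) sit on fibrils, and type VI collagen forms beaded microfibrils around cells. In liver, stellate cells and portal fibroblasts are the main makers of fibrillar collagen, type IV collagen also comes from endothelium, and deposition of types I and III is the hallmark of fibrosis.

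The labels were checked first on Nrg4 itself, with log2 values of 4.94, 4.79 and 4.77 on the wild-type arrays and 2.56, 2.43 and 2.64 on the knockout arrays. Nrg4 fell by 2.30 on the log2 scale (SE 0.10, limma adjusted p = 4.76e-05), and where the deleted part lies relative to its probe set is not known here. Alb, the albumin gene of hepatocytes, read between 12.3 and 12.4 on the 6 arrays. Over all genes, 5 passed at a limma p adjusted by Benjamini-Hochberg under 0.05, which is 0.0401% of those tested. The genome-wide distribution leaned upward in the knockout, with 63.4% of genes above 0 and a median log2 change of 0.045. At an unadjusted p under 0.05, 7.36% of genes were higher and 2.18% lower, and all knockout arrays lay above all wild-type arrays in 11.7% of genes and below them in 3.92%. Control values were in part separated by genotype. The 18S ribosomal RNA control was lower on all knockout arrays. Its 5' probe set read 5.61 to 6.71 in the knockout and 8.12 to 8.80 in wild type, its middle probe set 5.74 to 6.59 and 7.92 to 8.14, and its 3' probe set 6.67 to 6.89 and 7.45 to 7.73. The highest value among the nonspecific-binding controls was also separated, at 5.68 to 5.84 in the knockout and 5.29 to 5.48 in wild type. Their median overlapped, at 1.65 to 1.76 in the knockout and 1.66 to 1.70 in wild type. The difference between the 5' and 3' probe sets of Actb and Gapdh, a measure of RNA integrity, was -1.31 on knockout replicate 1, where the other knockout arrays had -0.70 and -0.65 and wild type -0.96 to -0.78.

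No collagen gene passed the test over all genes. Of the 26 tested, 15 had a higher value in the knockout, 57.7% against the 63.4% of all genes, and the median log2 change was 0.036, beside 0.045 over all genes. A few members stood away from the rest on the higher side: 5 collagen genes had an unadjusted p under 0.05, 19.2% of those tested against 7.36% of all genes, and these were Col14a1, Col3a1, Col6a3, Col4a1 and Col5a2. Col27a1 was the single member with an unadjusted p under 0.05 on the lower side, where all genes had 2.18%. The genotypes did not overlap for Col14a1, Col3a1 and Col4a1 on the higher side, 11.5% of the tested members beside 11.7% of all genes, and for Col27a1 on the lower side, where the share of all genes was 3.92%. The test over every probe set, rather than 1 per gene, called none of the 35 collagen probe sets above the dim limit.

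**Figure D1:**
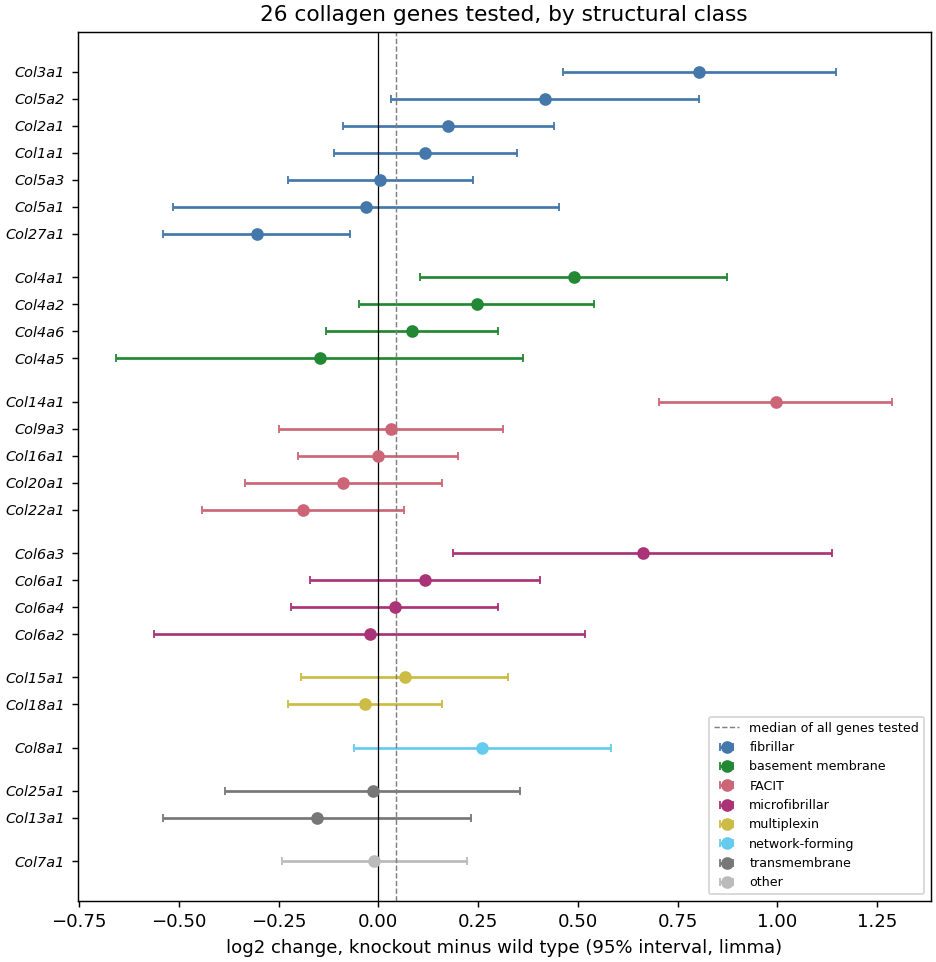
Log2 change, knockout minus wild type, of each of the 26 collagen genes tested, with its 95% confidence interval from limma, grouped by structural class; the dashed line is the median over all genes tested. Col14a1 at 1.00 and Col3a1 at 0.80 lie farthest to the right, Col27a1 at -0.30 farthest to the left, and most other intervals include 0.

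The fibrillar class has 11 genes, of which 7 were tested; 5 had a higher value and 2 a lower value, with a median log2 change of 0.12 and none past the test. Col3a1, which encodes the chain of type III collagen, the supple fibril laid down beside type I in early scar, read 6.18, 6.12 and 6.35 on the wild-type arrays and 6.95, 6.76 and 7.35 on the knockout arrays. All 3 knockout pools lay above all 3 wild-type pools, with knockout replicate 3 the highest. The log2 change was 0.80 (SE 0.15; 1.75-fold), with a limma adjusted p of 0.143. Its second probe set lay under the dim limit, at a mean of 2.19, and differed by 0.07.

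The bases before the annotated start of Col3a1 are printed because it is the fibrillar collagen with the largest change, beside Col27a1, the fibrillar collagen with the most negative one. Both come from the RefSeq promoter table on GRCm38.p6, as the 250 bases before the start, written 5' to 3' along the strand of the gene. Capitals mark matches on either strand to 3 promoter motifs, none of which overlap here: the TATA box, searched as TATAAA; the box searched as CCAAT; and the GC box, searched as GGGCGG. The Col3a1 window is chr1:45311288-45311537 on the plus strand and the Col27a1 window is chr4:63215162-63215411 on the plus strand.
Col3a1: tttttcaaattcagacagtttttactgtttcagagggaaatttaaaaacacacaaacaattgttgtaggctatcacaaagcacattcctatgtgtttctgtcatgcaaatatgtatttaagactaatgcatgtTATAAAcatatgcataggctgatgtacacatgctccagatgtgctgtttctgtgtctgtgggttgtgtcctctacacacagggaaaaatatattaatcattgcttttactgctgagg
Col27a1: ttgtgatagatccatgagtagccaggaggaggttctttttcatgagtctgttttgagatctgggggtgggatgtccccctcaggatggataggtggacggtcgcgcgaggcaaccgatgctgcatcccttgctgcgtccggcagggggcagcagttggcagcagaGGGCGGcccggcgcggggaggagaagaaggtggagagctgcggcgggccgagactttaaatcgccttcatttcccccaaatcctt
The Col3a1 window had a GC content of 35.2% and 1 TATA box match, beginning 117 bases before the start. The Col27a1 window had a GC content of 59.6% and 1 GC box match, beginning 85 bases before the start. The median GC content over all 27025 promoters of the table was 52%.

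Col27a1, which encodes a fibrillar collagen best known from cartilage, had a lower value in the knockout. Its values were 6.39, 6.37 and 6.15 in wild type and 6.12, 5.94 and 5.93 in the knockout, so that every knockout pool lay below every wild-type pool, the nearest of them by a small margin. The log2 change was -0.30 (SE 0.10), with a limma adjusted p of 0.410. A second Col27a1 probe set above the dim limit had a log2 change of -0.14 (SE 0.13), and there the genotypes overlapped.

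Col5a2 encodes a chain of type V collagen, which nucleates type I and III fibrils, and it lies next to Col3a1 on chromosome 1. It read 3.51, 3.52 and 3.99 in wild type and 3.79, 4.30 and 4.18 in the knockout. Knockout replicate 1 lay below wild-type replicate 3, so the genotypes overlapped. The log2 change was 0.42 (SE 0.17, limma adjusted p = 0.490), and a second probe set of Col5a2 gave 0.12 (SE 0.11). Of the other type V genes, Col5a1 had a log2 change of -0.03 and Col5a3 of 0.01, neither past the test.

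Type I collagen, the most abundant fibrillar collagen of scar, gave a signal near or under the dim limit on these arrays. Col1a1, its alpha 1 chain, read 3.34, 3.05 and 3.28 in wild type and 3.39, 3.30 and 3.32 in the knockout. The genotypes overlapped, and the log2 change was 0.12 with a 95% interval from -0.11 to 0.35 (limma adjusted p = 0.744). The upper end of that interval lies under the lower end for Col3a1, whose interval runs from 0.46 to 1.15, but the difference between these genes was not tested. Col1a2, the alpha 2 chain, named here because it is the partner of Col1a1, has 1 probe set, with a mean of 1.70 that lay within the range of the median nonspecific-binding control, 1.65 to 1.76. It was therefore not tested, and no level of Col1a2 can be given. Of the remaining fibrillar genes, Col2a1 had a log2 change of 0.18, and Col11a1, Col11a2 and Col24a1 lay under the dim limit.

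**Figure D2:**
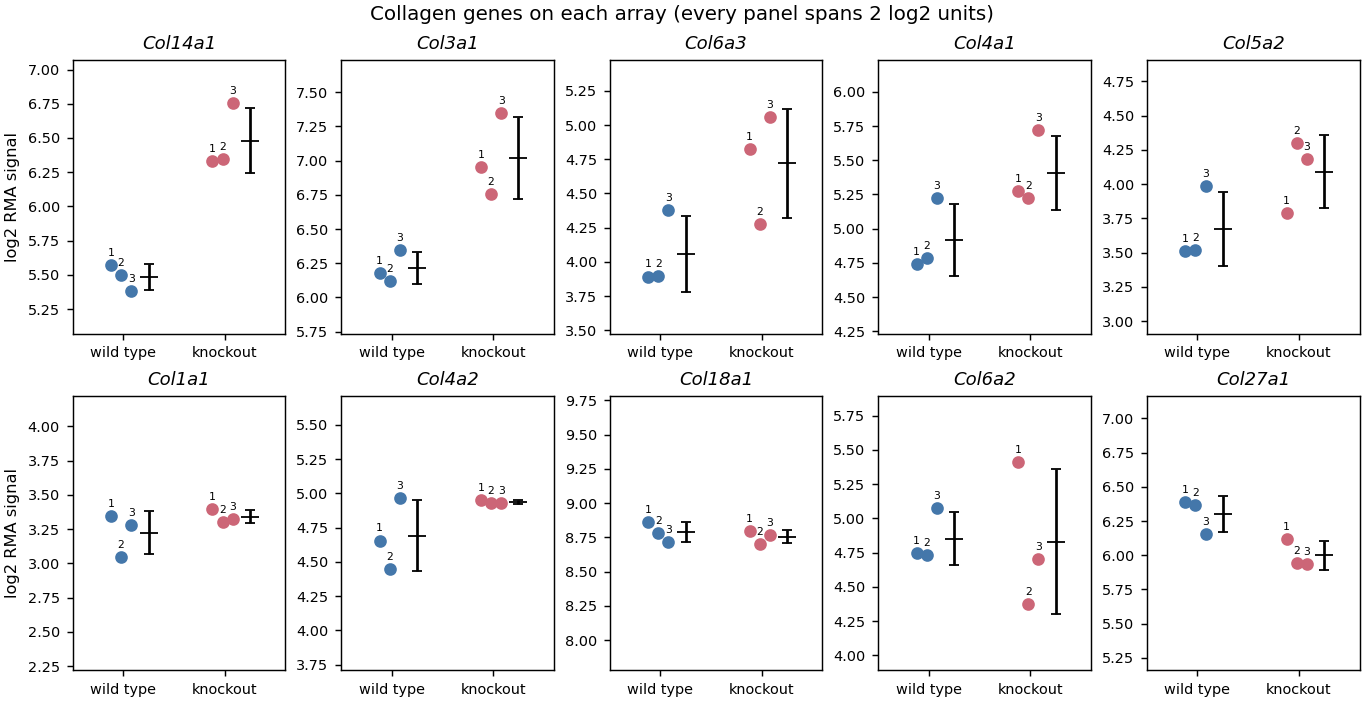
Log2 RMA value on each array for 10 collagen genes, with 3 wild-type and 3 Nrg4 knockout points labelled by replicate and the mean ± SD of each genotype beside them; every panel spans 2 log2 units, and levels are not comparable between genes. Knockout and wild-type points are separated for Col14a1, Col3a1, Col4a1 and Col27a1, and overlap for Col6a3, Col5a2, Col1a1, Col4a2, Col18a1 and Col6a2.

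The basement membrane class holds the 6 type IV genes, of which 4 were tested, with 3 higher, 1 lower, a median log2 change of 0.17 and none past the test. Col4a1, which with Col4a2 makes the ubiquitous type IV trimer, read 4.74, 4.79 and 5.22 in wild type and 5.28, 5.23 and 5.72 in the knockout. The genotypes did not overlap, but the lowest knockout pool and the highest wild-type pool were nearly level. The log2 change was 0.49 (SE 0.17; 1.40-fold), with a limma adjusted p of 0.423. A second Col4a1 probe set gave 0.33 (SE 0.11), again with no overlap. Without wild-type replicate 1 or 2, or without knockout replicate 3, the unadjusted limma p for Col4a1 was over 0.05, at most 0.0695.

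Col4a2 is transcribed head to head with Col4a1 on chromosome 8, with starts 21 bases apart in the RefSeq table, on opposite strands. It read 4.66, 4.45 and 4.97 in wild type and 4.96, 4.93 and 4.93 in the knockout. Wild-type replicate 3 lay above all knockout pools, and the log2 change was 0.25 (SE 0.13, limma adjusted p = 0.581). The chains of the more restricted type IV trimers were near or under the dim limit: Col4a6 had a log2 change of 0.09 and Col4a5 of -0.15, while Col4a3 and Col4a4 were not tested.

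Among the 9 FACIT genes 5 were tested, with 2 higher, 3 lower and a median log2 change of -0.00; none passed the test. Col14a1 encodes type XIV collagen, which coats fibrils and serves as a marker of fibroblasts and some stellate cells. It had the largest change of any collagen: 5.57, 5.50 and 5.38 on the wild-type arrays and 6.33, 6.35 and 6.75 on the knockout arrays. The genotypes were separated by more than the spread within either. The log2 change was 1.00 (SE 0.13; 1.99-fold, 95% interval 0.70 to 1.29), and the limma adjusted p was 0.0597, just outside the threshold. A second Col14a1 probe set read 4.40, 4.29 and 4.17 in wild type and 4.81, 4.87 and 5.25 in the knockout, with a log2 change of 0.69 (SE 0.13) and no overlap. Another, with a mean of 1.97, was dim and differed by 0.02. Over 17 other settings the adjusted p of Col14a1 ranged from 0.0169 to 0.205, and it passed the threshold in 4 of them: with the arrays quantile normalized again (0.0451), with a variance trend (0.0169), with array weights (0.0192) and with the 5' to 3' control signal as a covariate (0.0463). Averaging all probe sets of a gene, the dim ones included, gave a log2 change of 0.57 for Col14a1 and 0.44 for Col3a1.

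The other FACIT genes lay close to 0. Col16a1 read 3.89, 3.97 and 4.09 in wild type and 3.97, 4.00 and 3.97 in the knockout, with a log2 change of -0.00 and a 95% interval from -0.20 to 0.20. Col9a3, Col20a1 and Col22a1 had log2 changes of 0.03, -0.09 and -0.19, and Col9a1, Col9a2, Col12a1 and Col19a1 lay under the dim limit.

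The microfibrillar class had 5 type VI genes on the array, of which 4 were tested, with 3 higher, 1 lower, a median log2 change of 0.08 and none past the test. Col6a3 encodes the largest chain of type VI collagen, whose cleaved tail is endotrophin. It read 3.89, 3.90 and 4.38 in wild type and 4.83, 4.28 and 5.06 in the knockout. Knockout replicate 2 lay below wild-type replicate 3, while the other knockout pools lay above all of wild type. The log2 change was 0.66 (SE 0.21; 1.58-fold), with a limma adjusted p of 0.373.

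The promoter of Col6a3 is shown as the microfibrillar member with the largest change, in the same form as the fibrillar ones, from chr1:90843972-90844221 on the minus strand of GRCm38.p6 in RefSeq.
Col6a3: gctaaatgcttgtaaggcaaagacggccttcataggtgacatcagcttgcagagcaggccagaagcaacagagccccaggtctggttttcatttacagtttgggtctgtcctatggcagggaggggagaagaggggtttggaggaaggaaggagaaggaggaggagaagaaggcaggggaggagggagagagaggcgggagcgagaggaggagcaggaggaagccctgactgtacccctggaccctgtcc
It held none of the 3 motifs, so no letters are in capitals, and its GC content was 57.2%. Of the 42 collagen genes 33 matched the table. Among those, the TATA box letters occurred in 15.2% of the 250-base windows, against 13.0% of all promoters. The CCAAT letters occurred in 36.4% against 34.5%, and those of the GC box in 60.6% against 32.9%. Col1a1, Col2a1, Col4a3, Col5a2, Col9a3, Col12a1, Col14a1, Col22a1 and Col26a1 are named only.

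The other type VI genes tested gave smaller changes than Col6a3. Col6a2 read 4.75, 4.73 and 5.07 in wild type and 5.41, 4.37 and 4.70 in the knockout, a log2 change of -0.02 with a wide 95% interval from -0.56 to 0.52. The probe set behind those values carries the suffix of a design that can bind other transcripts. The other Col6a2 probe set, without that suffix, read 4.12, 3.94 and 4.21 in wild type and 4.30, 4.30 and 4.75 in the knockout, which is a log2 change of 0.36 (SE 0.14) with no overlap. The sign for Col6a2 thus depended on the probe set, but the wide interval of the first includes the value of the second. Col6a1, next to Col6a2 on chromosome 10, had a log2 change of 0.12 with an interval from -0.17 to 0.41, and Col6a4 had 0.04.

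In the remaining classes the genotypes overlapped for every gene tested. Col18a1, a multiplexin of basement membranes whose cleaved end is endostatin and which hepatocytes are known to make, read 8.86, 8.78 and 8.72 in wild type and 8.79, 8.70 and 8.76 in the knockout. Its log2 change was -0.03, with an interval from -0.23 to 0.16, and its second probe set gave 0.12 (SE 0.09). Col15a1, the other multiplexin, had a log2 change of 0.07. Col8a1, a network-forming collagen of vessel walls, had 0.26 (SE 0.14), with knockout replicate 2 at 4.41 and the other 5 arrays between 3.75 and 3.96. Of the transmembrane collagens, Col13a1 had -0.15 and Col25a1 -0.01. Col7a1, the anchoring fibril collagen of skin, had -0.01. None of these passed the test.

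The collagen genes were also split by signal. Of the 26 genes tested, 16 had a mean at least 1 log2 unit above the dim limit, and all 6 genes with an unadjusted p under 0.05 were among them. Of these 16, 5 were higher and 1 lower at that p. Of all 8774 genes tested in that band, 7.98% were higher at an unadjusted p under 0.05, and the share that was lower was not counted. The other 10 collagen genes, nearer the limit, had log2 changes from -0.19 to 0.18 and none with an unadjusted p under 0.05. Of all 3692 genes tested in that lower band, 5.90% were higher at an unadjusted p under 0.05. Whether signal limited the collagen changes there was not tested. The 16 untested genes had means from 1.64 to 2.56 and differences from -0.15 to 0.09. Whether a change in them could be detected at this signal was not tested.

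**Figure D3:**
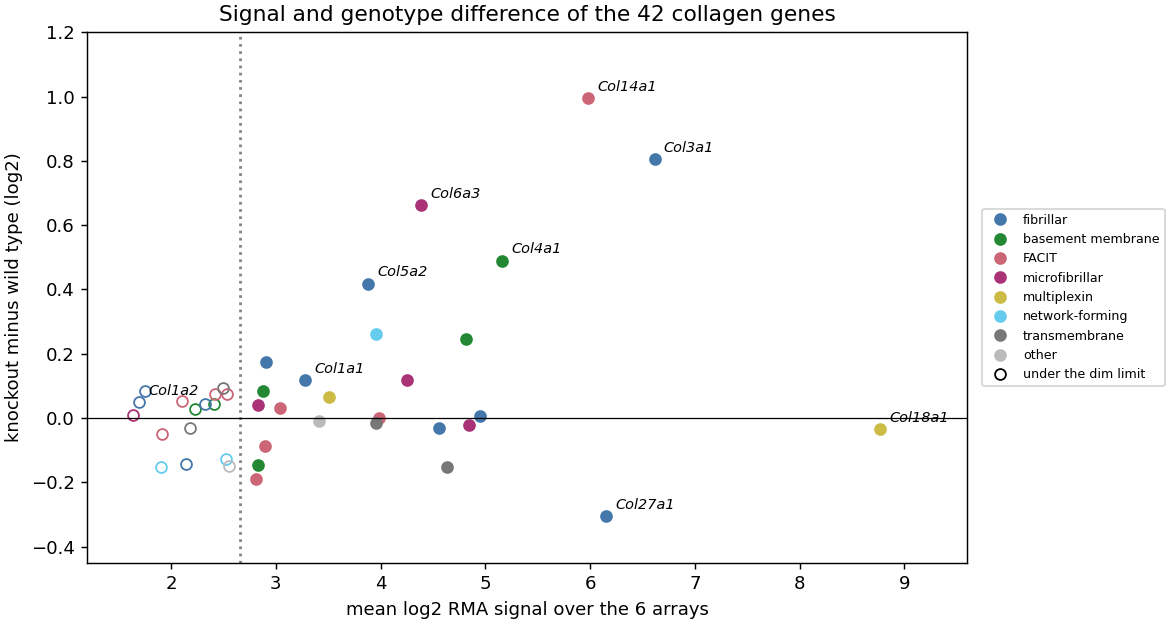
Difference between genotypes (log2, knockout minus wild type) against the mean log2 RMA signal over the 6 arrays for all 42 collagen genes, coloured by class, with genes under the dim limit of 2.66 (dotted line) as open points. The open points lie between -0.15 and 0.09, and the larger differences are all to the right of the line.

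The pools were uneven. Averaged over the 26 tested collagen genes as deviations from the 6-array mean of each gene, wild-type replicates 1 to 3 stood at -0.09, -0.11 and -0.00 and knockout replicates 1 to 3 at 0.10, -0.02 and 0.13. Knockout replicate 2 thus lay below wild-type replicate 3, although for Col8a1, the single tested network-forming gene, it was the highest array. In the microfibrillar class knockout replicate 2, at -0.19, lay among the wild-type arrays, while knockout replicates 1 and 3 stood at 0.27 and 0.22. In the basement membrane class wild-type replicate 3, at 0.12, lay above knockout replicates 1 and 2, at 0.07 and -0.01. With each array left out in turn, Col14a1, Col3a1 and Col6a3 kept an unadjusted p under 0.05 in 6 of 6 fits, Col4a1 in 3, and Col5a2 and Col27a1 in 2 each. With the 5' to 3' control signal as a covariate, the log2 changes of Col14a1, Col3a1, Col6a3, Col4a1, Col5a2 and Col27a1 were 0.99, 0.80, 0.66, 0.49, 0.41 and -0.30. The part of the 18S and nonspecific-control differences in these values was not tested.

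**Figure D4:**
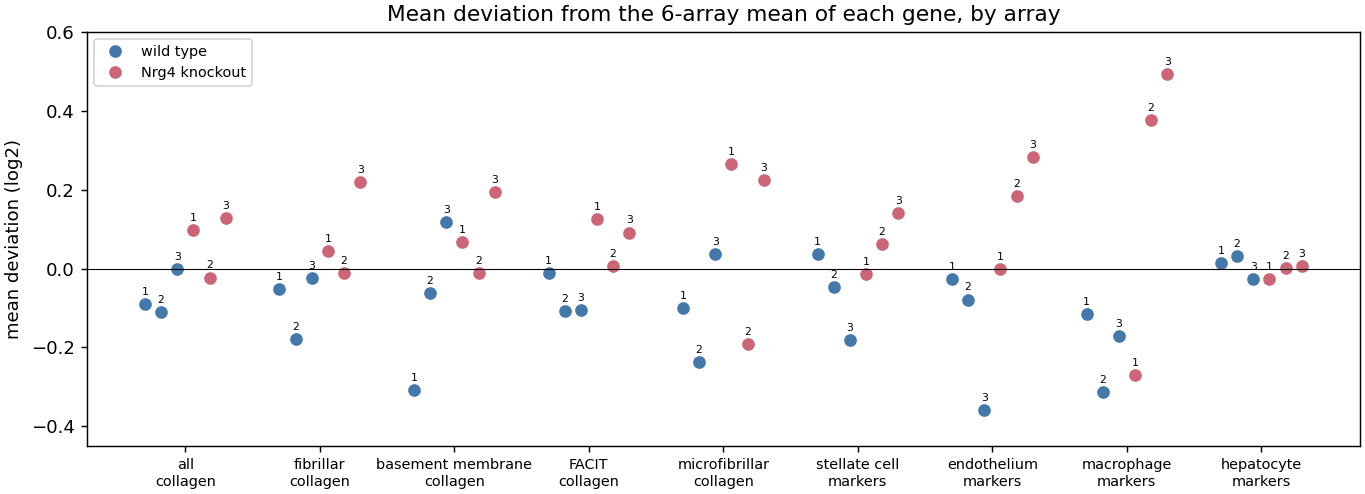
Mean deviation (log2) from the 6-array mean of each gene, by array, over all tested collagen genes, 4 collagen classes and 4 lists of cell markers; the number over each point is the replicate. Knockout replicate 2 is the lowest knockout array in each of the 4 classes plotted, at -0.01 in the fibrillar and basement membrane, 0.01 in the FACIT and -0.19 in the microfibrillar class, whereas in the macrophage list knockout replicate 1 is lowest, at -0.27.

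Markers of cells that make or border collagen had uneven values, and none passed the test. Beside the counts of higher markers in each list stands the 63.4% of all genes tested that lay above 0. Of 14 stellate cell markers 12 were tested, 10 were higher and 2 lower, with a median log2 change of 0.19. Colec11, a collectin, had 0.44 and Lrat, the retinol-esterifying enzyme of quiescent stellate cells, 0.39, whereas Hhip, a hedgehog antagonist, had -0.52. At an unadjusted p under 0.05, 4 were higher, 33.3% of those tested beside 7.36% of all genes, and 2 lower, where all genes had 2.18%. The mean log2 value of the tested markers on each array was 5.17 to 5.39 in wild type and 5.34 to 5.50 in the knockout. Hand2 and Lhx2 were dim. Of 11 portal fibroblast markers 7 were tested, 4 were higher and 3 lower, with a median of 0.07 and means of 3.77 to 3.84 in wild type and 3.67 to 3.87 in the knockout. Thy1, a surface marker of portal fibroblasts, had -0.38, Entpd2 had 0.16 and Mfap4 0.07, and Cd34, Clec3b, Fbln2 and Gli1 were dim.

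Vascular smooth muscle had 3 of 6 markers tested, with 2 higher, a median of 0.21, means of 4.20 to 4.45 in wild type and 4.41 to 4.63 in the knockout, and Cnn1 and Myh11 dim. Acta2, the smooth muscle actin that activated stellate cells also make, had a log2 change of -0.02, Actg2 had 0.21 and Tpm2 0.30. Endothelial markers were higher in 9 of 11 tested, of 12 listed, with a median of 0.28 and means of 5.48 to 5.81 in wild type and 5.84 to 6.12 in the knockout. Lyve1, a sinusoidal hyaluronan receptor, had 1.29 (SE 0.19, limma adjusted p = 0.0743), Ptprb 0.49 and Cdh5 0.38, and Tie1 was dim. At an unadjusted p under 0.05, 4 endothelial markers were higher, 36.4% beside 7.36% of all genes, and none lower. Macrophage markers were higher in 12 of 12, with a median of 0.34, and 5 of them, 41.7% beside 7.36% of all genes, had an unadjusted p under 0.05. The 3 with the smallest p were Adgre1, with a log2 change of 0.64, Mpeg1 with 0.45 and Cd5l with 0.35; the range of the list was 0.15 to 0.90. Their means were 6.11 to 6.31 in wild type and 6.16 to 6.92 in the knockout. Cholangiocyte markers had 2 of 6 tested (Sox9 0.35, Epcam 0.04; Cftr, Krt19 and Krt7 dim), with means of 3.22 to 3.44 in wild type and 3.30 to 3.69 in the knockout. Mesothelial markers had 2 of 6 tested, Upk3b at 0.15 and Krt8 at 0.05, with Gpm6a, Lrrn4, Msln and Wt1 dim. The means of the tested markers were 6.39 to 6.59 in wild type and 6.46 to 6.67 in the knockout. These means combine Krt8, at 9.04 over the 6 arrays, with Upk3b, at 3.99. As the other mesothelial markers were dim, the means give no level of mesothelium. Hepatocyte markers, 7 of 8 tested with Pck1 dim, had 2 higher and 5 lower and a median of -0.02, with Ttr at -0.04, Alb at 0.03 and Serpina1a at -0.03. Their means were 11.9 on every array, near the highest value of any probe set, 12.5. Whether a change would show at that signal was not tested. The part of these markers in the collagen values was not tested.

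Genes that work with collagen were followed along the path from synthesis to breakdown, and none passed the test in either direction in any of the 7 lists. Enzymes and chaperones that fold and modify procollagen in the endoplasmic reticulum had 14 members tested, with 8 higher, 6 lower, a median log2 change of 0.04 and none at an unadjusted p under 0.05. Plod2, a lysyl hydroxylase, had -0.32, P4ha2, a prolyl hydroxylase chain, -0.24, and P3h1, a prolyl 3-hydroxylase, 0.26. Proteins that trim propeptides and crosslink fibrils had 7 tested, 4 higher and 3 lower, with a median of 0.03 and none at an unadjusted p under 0.05. The lysyl oxidase Loxl3 had a log2 change of 0.32, Pcolce2, an enhancer of propeptide cleavage, 0.29, and Loxl4 -0.06.

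Proteoglycans and glycoproteins that bind fibrils nearly all had higher values in the knockout, where 63.4% of all genes tested lay above 0. Of 13 tested, 12 were higher and 1 lower, with a median log2 change of 0.20; 5 had an unadjusted p under 0.05, 38.5% of the list beside 7.36% of all genes. Sparc, a collagen-binding glycoprotein, read 6.07, 5.94 and 5.81 in wild type and 6.53, 6.66 and 6.89 in the knockout. All knockout pools lay above all wild-type pools, and the log2 change was 0.75 (SE 0.12, limma adjusted p = 0.0788). Dcn, the fibril-coating proteoglycan decorin, read 8.87, 8.72 and 8.55 in wild type and 9.15, 9.08 and 9.13 in the knockout, a log2 change of 0.40 (SE 0.10) with no overlap. Postn, periostin, had 0.73 (SE 0.22), with wild-type replicate 3 at 4.42 and the other wild-type arrays at 5.15 and 5.38.

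Partners of type IV collagen in the basement membrane were mixed, with 6 higher and 5 lower of 11 tested and a median of 0.08. The linker Nid1 had 0.39, the type IV crosslinking enzyme Pxdn 0.33 and the laminin chain Lamb3 0.30; these 3, 27.3% of the list beside 7.36% of all genes, had an unadjusted p under 0.05. Collagen receptors leaned the other way: 3 were higher and 5 lower of 8 tested, with a median of -0.10 and none at an unadjusted p under 0.05. Ddr2, the fibrillar collagen receptor kinase, had -0.23, Itgb1, the shared beta chain of collagen-binding integrins, -0.16, and Ddr1 -0.12. Collagen-degrading enzymes and their inhibitors had 8 higher and 2 lower of 10 tested, with a median of 0.10. Timp3, a matrix-bound inhibitor, had 0.39 and Ctsk, a collagen-cleaving cathepsin, 0.36, both at an unadjusted p under 0.05 (20% of the list beside 7.36% of all genes), and Ctsl had 0.14.

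Transforming growth factor beta is the best known inducer of collagen transcription in stellate cells. In its list 7 were higher and 3 lower of 10 tested, with a median log2 change of 0.15 and 4 higher at an unadjusted p under 0.05, 40% of the list beside 7.36% of all genes. Tgfbi, a secreted target that binds collagen, had 0.42 (SE 0.10). Ccn2, connective tissue growth factor, read 3.92, 4.78 and 4.97 in wild type and 5.29, 5.52 and 5.58 in the knockout, a log2 change of 0.90 (SE 0.24, limma adjusted p = 0.314); wild-type replicate 1 was low and all knockout pools lay above wild type. The receptor Tgfbr2 had 0.41. The ligands themselves, Tgfb1, Tgfb2 and Tgfb3, lay under the dim limit on this array, as did the latent binding protein Ltbp1.

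**Figure D5:**
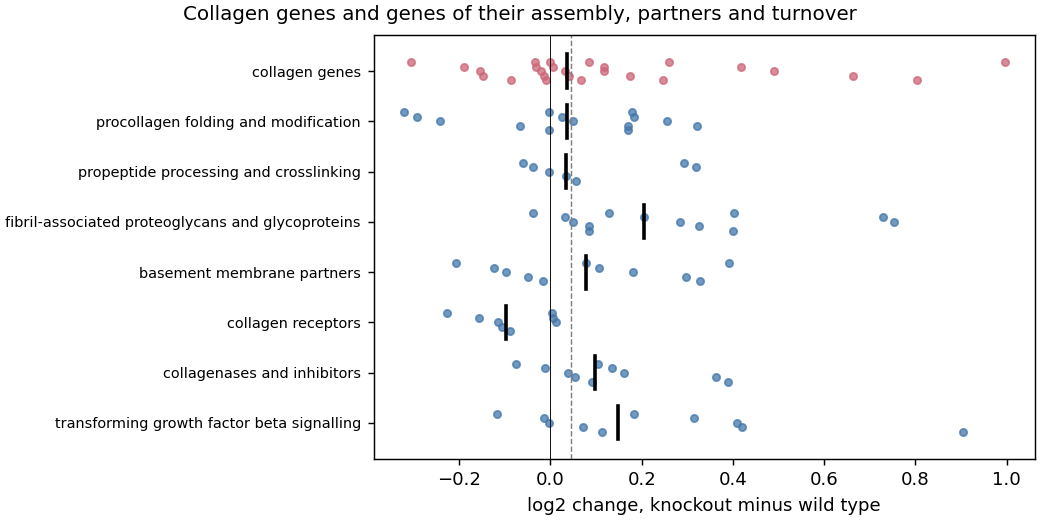
Log2 change, knockout minus wild type, of each tested gene among the collagens and in each of the 7 lists of genes that work with them; black bars are list medians and the dashed line is the median over all genes tested, 0.045. The fibril-associated list lies almost wholly above 0, and the receptor list mostly below it.

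All 42 collagen genes matched a RefSeq gene, which gave their order on the chromosomes. Of the collagen pairs that lie next to each other, Col3a1 and Col5a2 had log2 changes of 0.80 and 0.42, Col4a1 and Col4a2 had 0.49 and 0.25, and Col6a2 and Col6a1 had -0.02 and 0.12. The X-linked pair Col4a6 and Col4a5 had 0.09 and -0.15. On chromosome 9, where Nrg4 itself lies, there are 5 collagen genes; Col5a3, Col6a4 and Col7a1 had log2 changes of 0.01, 0.04 and -0.01, and Col12a1 and Col6a5 were dim.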

How the data were processed

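Liver RNA (Trizol, 250 ng, 3' labelling) was hybridised to 6 arrays, per the labels' protocols. The deposited table holds log2 RMA values (background-corrected, normalized between arrays, summarised per probe set); affy, RMA and limma are named in the submitters' processing notes, with versions and build not given in the sources used here. It has 45141 probe sets, 104 of them controls, and values from 1.03 to 12.5. Probe sets with 1 symbol (28898) gave 1 value per gene, from the probe set with the highest mean, and genes under the 40th percentile of non-control probe sets were left out.

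Knockout was set against wild type by lmFit and eBayes of limma 3.58.1 in R 4.3.3 (two-sided), with Benjamini-Hochberg adjustment over 12466 genes and a threshold of 0.05; the script was tested on simulated data. The smallest p of an exact permutation test with 3 arrays a side is 0.1. The number of arrays limits the precision. Named were Nrg4, Col1a1, Col3a1, Col14a1 and Col4a1, collagens with an unadjusted p under 0.05, the 2 of each class with the highest mean, and the 3 genes of each list with the smallest p; other collagens named, and list genes named as dim, were picked with their values known. The members and lists were chosen with earlier results of these data known, so nothing here is independent support for them. Alternatives were another normalization, filter, variance model, weights or probe set rule, the replicate block and leaving out each array. Added after seeing the data were a 5' to 3' covariate and leaving out probe sets with the suffix _x or _s.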

Additional observations from a re-analysis of the deposited data

How the results depend on the processing

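With 3 arrays a genotype the precision was limited, and genes under the dim limit were left out of the main fit. Of 270 values of 16 named collagen genes under alternatives, 4, all of Col14a1, passed the threshold; Col14a1, Col3a1, Col6a3, Col4a1, Col5a2 and Col27a1 kept their sign, while Col6a2 ran from -0.31 to 0.36 and Col15a1, Col16a1, Col18a1, Col25a1 and Col7a1 also crossed 0. The count of collagen genes called, 0 (6 at an unadjusted limma p under 0.05), was 1 with the arrays quantile normalized again, a variance trend, array weights, an adjusted p under 0.10 or the 5' to 3' covariate, and 0 with each array left out. Over all genes the count called, 5, was 8 with quantile normalization again, 3 with a filter at the 60th percentile, 29 with a variance trend, 50 with array weights, 3 with the mean of all probe sets, 30 at an adjusted p under 0.10, and 1 to 17 with each array left out (17 without knockout replicate 1, 1 without wild-type replicate 2 or knockout replicate 3). With no filter 25 of 42 collagen genes were higher, 59.5% beside 60.8% of all genes. In the main fit it was 15 of 26, 57.7% beside 63.4%. With no filter 8 of the 42 had no overlap in either direction, 4 of them higher in the knockout. In the main fit it was 4 of the 26, 3 of them higher. The share of all genes with no overlap was not counted under the alternatives, so these counts cannot be set against a background. That count of 4 was 4 to 9 with each array left out, 7 without wild-type replicate 1, 8 without knockout replicate 1 and 9 without wild-type replicate 3 or knockout replicate 2, where 2 arrays against 3 separate more easily. The median collagen change, 0.036, was 0.092 with the mean of all probe sets and 0.025 to 0.10 with each array left out, highest without knockout replicate 2 and at 0.088 without wild-type replicate 3. The cause of these shifts, the smaller number of arrays, genes or probe sets included, was not tested. Same-numbered arrays had correlations of -0.15, 0.03 and -0.01, but with 3 arrays a genotype these cannot show whether the numbers pair the pools. With the replicate block the count over all genes was 2 and that of collagen genes 0. In that fit the unadjusted limma p was smaller for Col3a1, Col4a1 (0.00153 against 0.0185), Col5a2 and Col6a3 (0.00152 against 0.0119). It was larger for Col14a1 (0.000238 against 3.66e-05) and Col27a1.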
